A study of Mus musculus with 18 samples.

Results

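The 10 enzymes and enzyme subunits of branched-chain amino acid (BCAA) catabolism examined here were Bcat2, Bckdha, Bckdhb, Dbt, Ivd, Mccc1, Mccc2, Hibch, Aldh6a1 and Acadsb. They were chosen by symbol from the 25124 genes of the count tables, with earlier results of these data known. All 10 were found and passed the filter on low counts in every comparison. RNA was measured in inguinal white (iWAT), epididymal white (eWAT) and brown (BAT) adipose tissue of male mice with a global deletion of caspase-6 (C6KO) and of wild-type (WT) mice, on a C57BL/6J background and bred from heterozygous pairs. All of them had eaten a high-fat diet (HFD, 60% of calories from fat) for 12 weeks from an age of 10 to 14 weeks, and were fasted for 10 hours before tissue was taken. There were no chow-fed libraries, so the effect of the diet itself was not measured. Each of the 6 groups held 3 libraries of poly(A) RNA, 18 in all, each library from 1 replicate. The deletion was present in every cell type, and the labels do not say whether the 3 depots came from the same mice.

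Leucine, isoleucine and valine are broken down by a shared start and separate ends. Bcat2 in the mitochondrion, or Bcat1 in the cytosol, moves the amino group away and leaves a branched-chain keto acid. The branched-chain keto acid dehydrogenase complex then removes a carboxyl group in the committed step. Bckdha and Bckdhb are the alpha and beta subunits of its decarboxylase, Dbt is its transacylase core and Dld is a dehydrogenase shared with other complexes. The kinase Bckdk phosphorylates Bckdha and switches the complex off, and the phosphatase Ppm1k switches it on. Afterwards Ivd and the carboxylase subunits Mccc1 and Mccc2 act on the leucine skeleton, Acadsb acts on the isoleucine skeleton, and Hibch and Aldh6a1 act on the valine skeleton. Adipocytes use the carbon of these amino acids as fuel and for lipid synthesis, and brown adipocytes import them into mitochondria through Slc25a44.

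In mm10, the members lay on 7 chromosomes. The transcripts counted were Bcat2 at chr7:45571279-45589710 on the plus strand, Bckdha at chr7:25629852-25658761 on the minus strand, Bckdhb at chr9:83925137-84124240 on the plus strand and Dbt at chr3:116513070-116549981 on the plus strand. Those of the leucine and isoleucine branches were Ivd at chr2:118861994-118882909 on the plus strand, Mccc1 at chr3:35959306-36000678 on the minus strand, Mccc2 at chr13:99948532-100015639 on the minus strand and Acadsb at chr7:131410601-131446211 on the plus strand. Those of the valine branch were Hibch at chr1:52845038-52920986 on the plus strand and Aldh6a1 at chr12:84430721-84451024 on the minus strand. The counts were reads on exons of these transcripts, and the same transcript was counted for each of the 10 in all 3 depots.

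The 250 bases before the start of the counted transcript were read from RefSeq (GRCm38.p6, the assembly of mm10) for 9 of the 10 members, all but Dbt. The 3 shown here are those of Bckdha and Bckdhb, which encode partners in 1 enzyme, and of Bcat2, the member whose depot differences were smallest. They are written 5′ to 3′ on the strand of the gene and end just before the start site, at chr7:25658762-25659011 (minus strand), chr9:83924887-83925136 (plus strand) and chr7:45571029-45571278 (plus strand). Capitals mark matches, on either strand, to AGGTCA (a nuclear receptor core element), GGGCGG (the core of Sp1 sites), CACCC (bound by Klf factors) and TATAA (the box that positions some start sites).
Bckdha: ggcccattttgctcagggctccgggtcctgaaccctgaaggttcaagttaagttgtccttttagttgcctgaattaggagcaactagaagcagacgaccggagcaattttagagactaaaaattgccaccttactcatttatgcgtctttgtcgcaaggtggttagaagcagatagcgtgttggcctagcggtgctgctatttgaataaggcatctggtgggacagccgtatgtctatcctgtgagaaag
Bckdhb: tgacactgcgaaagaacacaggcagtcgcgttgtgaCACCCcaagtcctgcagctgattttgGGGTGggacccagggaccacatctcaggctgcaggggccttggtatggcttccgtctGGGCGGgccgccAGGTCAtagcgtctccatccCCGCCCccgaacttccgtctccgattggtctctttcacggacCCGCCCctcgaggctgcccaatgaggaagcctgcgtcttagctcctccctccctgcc
Bcat2: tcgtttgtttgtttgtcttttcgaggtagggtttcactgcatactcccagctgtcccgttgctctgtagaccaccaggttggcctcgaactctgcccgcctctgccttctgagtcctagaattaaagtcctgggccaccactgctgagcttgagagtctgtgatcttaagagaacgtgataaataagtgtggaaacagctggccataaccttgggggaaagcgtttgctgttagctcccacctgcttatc

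The upstream windows of the partners Bckdha and Bckdhb differed. Bckdhb held 1 AGGTCA, starting 119 bases before the start site, 3 GGGCGG and 2 CACCC in a window of 63.2% GC, whereas none of the 4 motifs was in the windows of Bckdha (47.6% GC) or Bcat2 (50.4% GC). Over the 9 windows, GGGCGG was in 4 (Bckdhb, Mccc1, Hibch and Acadsb), against 32.7% of the 32851 windows of the same length in the table. CACCC was in 5 of the 9 against 52% of all windows, AGGTCA in 1 against 14%, and TATAA in 1, that of Aldh6a1, against 22.8%. The median GC content of the member windows was 52.4%, the same as over all windows. These are matches of letters only, and the windows leave out distal elements.

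Total counts per library were 16506034 to 19139694 in the white depots and 7803108 to 12428683 in BAT, and each member had at least 556 counts in every library. Casp6 itself was lower in the C6KO libraries of each depot, with no overlap with WT and log2 fold changes of -1.51 for iWAT, -1.85 for eWAT and -1.50 for BAT (edgeR quasi-likelihood adjusted p = 0.0751, 0.0132 and 0.0671). Brown adipocyte markers summed to 10231 to 17255 CPM (counts per 1000000 of the scaled library total) in WT BAT and to 234 to 482 in WT white fat, and mesothelial markers were highest in eWAT, so the libraries matched their depot labels. Some libraries stood apart. In WT BAT, library 2 held 32323 CPM of 8 skeletal muscle transcripts, against 119 and 1407 in the others, and 80.6 CPM of 6 lymphocyte transcripts against 3.88 and 5.10. In C6KO iWAT, library 3 held 1715 CPM of 10 macrophage transcripts, against 571 and 616 in the others and 2268 to 2671 in WT, and 275 CPM of 7 hepatocyte transcripts against 49.7 and 46.8. In eWAT, lymphocyte transcripts stood at 10.9, 11.0 and 198 CPM in C6KO libraries 1 to 3 and at 16.9, 78.6 and 145 in the WT libraries, so that library 3 of C6KO held the most. CPM were scaled by TMM within a depot, unless the 18-library scale is named.

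BCAA catabolic transcripts followed a depot order in obese WT mice. All 10 members were lower in eWAT than in iWAT, all 10 were higher in BAT than in eWAT, and 8 of 10 were higher in BAT than in iWAT. Bckdha, the catalytic alpha subunit of the keto acid dehydrogenase, spanned the widest range, and Bcat2, the mitochondrial aminotransferase that precedes it, the narrowest. A gene was called at a Benjamini-Hochberg adjusted p under 0.05 and a fold change of at least 1.5 in the quasi-likelihood fit of edgeR over all 18 libraries and 15866 genes. Of all genes tested, 12.9% were called lower in eWAT than in iWAT, 25% higher in BAT than in eWAT and 20.1% higher in BAT than in iWAT. The median log2 fold change of the members was -1.29 for eWAT against iWAT, 2.26 for BAT against eWAT and 0.94 for BAT against iWAT, and that of all genes was 0.01, 0.03 and 0.01. With libraries scaled by total counts alone, the calls over all genes were 2665 higher and 1528 lower for eWAT against iWAT instead of 2034 and 2042, 2888 and 4987 for BAT against eWAT instead of 3962 and 3746, and 2552 and 3641 for BAT against iWAT instead of 3185 and 2962. The members called were then 9, 9 and 7, without Bcat2 in the former 2 and without Mccc1 in the last.

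**Figure D1:**
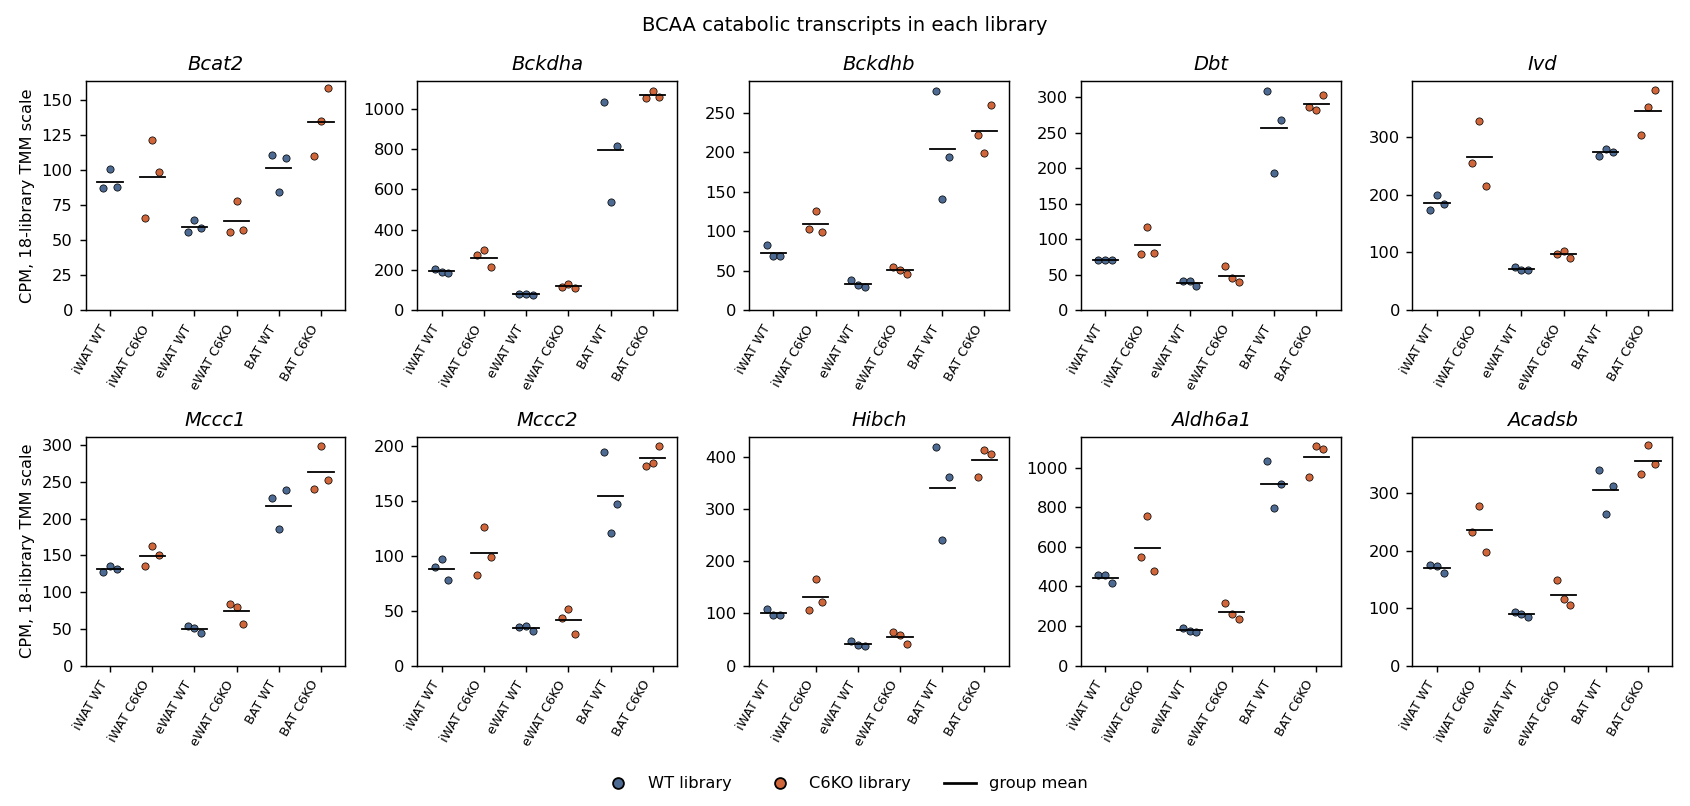
CPM on the 18-library scale (vertical axes, linear from 0, a scale per gene) of the 10 members in each of the 18 libraries, with points for libraries and bars for group means. BAT libraries lie highest and eWAT libraries lowest for Bckdha, Bckdhb, Dbt and Hibch, while Bcat2 differs least between the depots.

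Of the members, Bckdha showed the steepest gradient. It was at 80.0, 79.4 and 77.3 CPM in the 3 eWAT libraries of WT mice, at 204, 189 and 186 in iWAT and at 1033, 538 and 814 in BAT, all on the 18-library scale. The 3 depots did not overlap, although BAT libraries were spread widely and library 2, the one with muscle transcripts, was the lowest of them. Bckdha in BAT was 10.1 times its level in eWAT (log2 fold change 3.33 ± 0.20 (SE), adjusted p = 6.75e-10) and 4.12 times its level in iWAT (log2 fold change 2.04 ± 0.19 (SE), adjusted p = 2.14e-07). Its partner Bckdhb, the beta subunit, was at 37.7, 31.7 and 29.7 CPM in eWAT, 82.4, 68.8 and 68.1 in iWAT and 278, 141 and 194 in BAT. Bckdhb also separated the depots without overlap, with a log2 fold change of 2.63 ± 0.21 (SE) between BAT and eWAT (adjusted p = 1.62e-08). Dbt, the transacylase core, was at 40.8, 40.5 and 34.2 CPM in eWAT, 70.1, 71.1 and 70.4 in iWAT and 309, 194 and 268 in BAT. The BAT to eWAT difference of Dbt was 2.74 ± 0.20 (SE) on the log2 scale (adjusted p = 8.54e-09).

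Bcat2 did not share that gradient. It was at 55.4, 64.5 and 58.3 CPM in eWAT, 86.8, 100.3 and 87.8 in iWAT and 111, 84.5 and 109 in BAT of WT mice on the 18-library scale. The eWAT libraries were below all others, and iWAT and BAT libraries overlapped. Bcat2 in eWAT was 0.648 times its iWAT level (log2 fold change -0.63 ± 0.20 (SE), adjusted p = 0.0228), and its difference between BAT and iWAT was 0.14 ± 0.20 (SE) (adjusted p = 0.572), which was near 0 when libraries were scaled by total counts alone. The eWAT call of Bcat2 was lost under that scaling (log2 fold change -0.48), with at least 10 counts in every library (-0.57) and without WT library 2 of iWAT or 1 or 3 of eWAT.

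The leucine branch lay between these extremes. Ivd, isovaleryl-CoA dehydrogenase, was at 75.0, 68.8 and 69.8 CPM in eWAT, 174, 199 and 185 in iWAT and 268, 279 and 274 in BAT. It fell to 0.383 times the iWAT level in eWAT (log2 fold change -1.38 ± 0.14 (SE), adjusted p = 6.04e-06), whereas its increase from iWAT to BAT, 0.56 ± 0.14 (SE) on the log2 scale, had an adjusted p of 0.00322 and stayed under 1.5-fold, but was called without WT library 2 of iWAT. Mccc1, the biotin-carrying subunit of methylcrotonyl-CoA carboxylase, averaged 50.1 ± 4.51 CPM (SD, n = 3) in eWAT, 131 ± 4.26 in iWAT and 218 ± 27.9 in BAT. Mccc2, its other subunit, averaged 34.2 ± 2.36, 88.2 ± 9.49 and 154 ± 37.3 CPM (SD, n = 3) in the same order. The subunits moved by like amounts, with log2 fold changes of 2.12 and 2.17 between BAT and eWAT and of 0.73 and 0.80 between BAT and iWAT, and all 4 differences were called, although that of Mccc1 between BAT and iWAT fell under 1.5-fold with total counts alone (log2 fold change 0.58).

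Of the valine branch, Hibch, the hydrolase of hydroxyisobutyryl-CoA, was at 48.0, 38.7 and 37.1 CPM in eWAT, 108, 97.1 and 97.6 in iWAT and 419.6, 241 and 360.4 in BAT. Its BAT to eWAT difference of 3.04 ± 0.22 (SE) was exceeded among the members by that of Bckdha (adjusted p = 6.36e-09). Aldh6a1, methylmalonate semialdehyde dehydrogenase, averaged 178 ± 10.1 CPM (SD, n = 3) in eWAT, 444 ± 22.4 in iWAT and 916 ± 119 in BAT. For the isoleucine branch, Acadsb, the short and branched-chain acyl-CoA dehydrogenase, averaged 88.9 ± 4.55, 169.9 ± 7.48 and 305 ± 39.2 CPM (SD, n = 3) in these depots. All 3 genes were called in each depot comparison, with BAT to iWAT log2 fold changes of 1.75, 1.04 and 0.85.

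**Figure D2:**
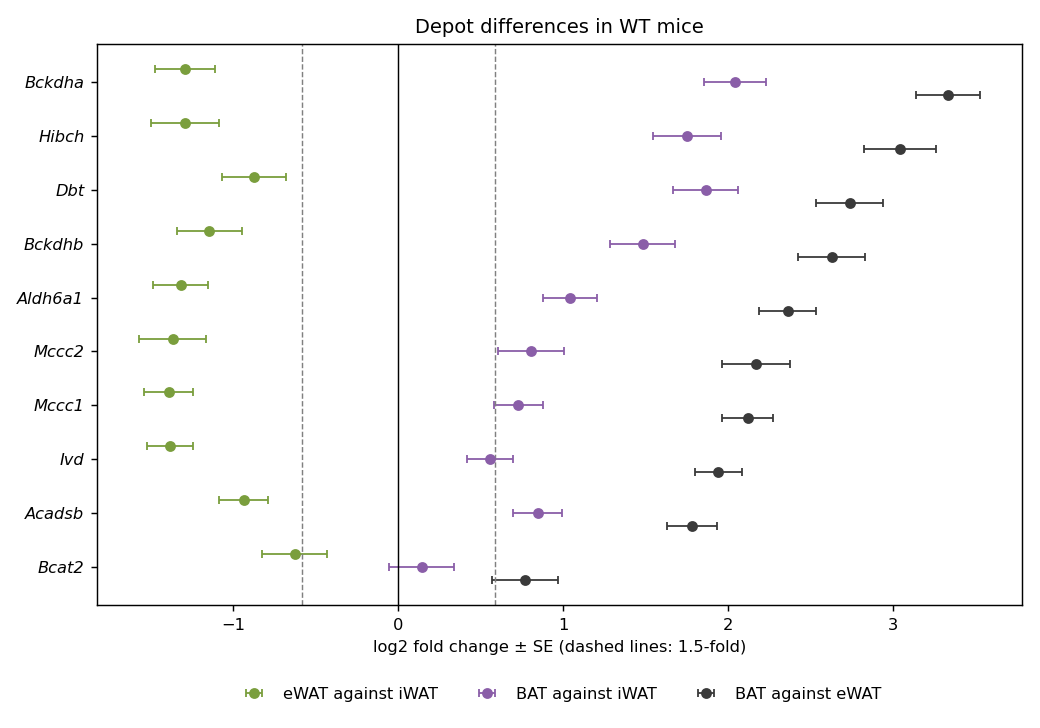
Log2 fold change with its SE (horizontal axis) of each member between depots of WT mice, from the fit of all 18 libraries, with dashed lines at 1.5-fold. Every eWAT to iWAT estimate is below 0 and every BAT to eWAT estimate above 0, from 0.77 for Bcat2 to 3.33 for Bckdha.

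Per transcript length, the order of the members changed with the depot. In TPM (counts divided by transcript length and scaled to sum to 1000000 in a library), Aldh6a1 led in both white depots of WT mice, at 311 to 342 over the 3 libraries of iWAT and 139 to 152 over those of eWAT, above Bckdha at 267 to 287 and 123 to 124. In BAT, Bckdha led at 673 to 1036 TPM, above Aldh6a1 at 516 to 575, and the libraries of these 2 genes did not overlap in any of the 3 depots. Bcat2 was the third highest in eWAT at 84.6 to 98.3 TPM and last in BAT at 104 to 129.7. Dbt was the lowest in both white depots, at 52.9 to 55.1 TPM in iWAT and 29.4 to 33.8 in eWAT. In iWAT the libraries of Hibch, Ivd, Bcat2 and Acadsb overlapped at group means between 128 and 139.6 TPM, and in BAT those of Dbt, Ivd, Mccc1 and Mccc2 overlapped between 146 and 157.

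Ratios within a library, which do not depend on scaling between libraries, showed the same shift. The TPM ratio of Bckdha to Bckdhb was 3.10 to 3.50 over the 3 WT libraries of BAT, 2.07 to 2.30 over those of iWAT and 1.77 to 2.17 over those of eWAT, so every BAT library was above every white fat library. The ratio of Bckdha to Bcat2 was 6.45 to 9.45 in BAT, 1.91 to 2.38 in iWAT and 1.25 to 1.46 in eWAT, without overlap between the depots. The ratio of the carboxylase subunits Mccc1 and Mccc2 stayed near 1 in all 3, at 0.832 to 1.16, 0.992 to 1.20 and 1.01 to 1.09 in the same order. These ratios were not tested.

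The rest of the pathway followed the members in most cases. Of 13 other catabolic enzymes, 9 were called lower in eWAT than in iWAT, and 11 higher in BAT than in eWAT. Between BAT and iWAT, 11 were called higher in BAT and 1 lower. Over all genes, 12.9%, 25% and 20.1% were called in the first 3 of these directions, and 2962 of 15866 were called lower in BAT than in iWAT. Acat1, which splits the last intermediate of isoleucine, Echs1, a hydratase, and Dld had BAT to eWAT log2 fold changes of 3.56, 3.47 and 3.33, beside 3.33 for Bckdha. The 1 called lower in BAT than in iWAT was Bcat1, the cytosolic aminotransferase, which was at 9.78, 11.7 and 12.7 CPM in BAT, 17.9, 13.5 and 15.9 in eWAT and 60.4, 57.9 and 62.2 in iWAT. Bcat1 was highest in iWAT, with log2 fold changes of -1.93 ± 0.29 (SE) in eWAT and -2.40 ± 0.30 (SE) in BAT (adjusted p = 1.42e-04 and 8.52e-06).

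Regulators and carriers were less uniform. The inhibitory kinase Bckdk was higher in BAT than in both white depots (log2 fold changes 1.77 against iWAT and 2.09 against eWAT), and so was the activating phosphatase Ppm1k (1.27 and 1.28), for which a different transcript was counted in 1 or more of the tables. Klf15, a transcription factor that controls amino acid catabolic genes, had a log2 fold change of -1.31 in eWAT against iWAT (adjusted p = 0.0407), and its call was lost on leaving out any WT library of either depot but library 1 of iWAT. Of 6 carriers, the mitochondrial carrier Slc25a44 was higher in BAT than in eWAT (1.40) and lower in eWAT than in iWAT (-0.94). The plasma membrane transporter subunits Slc7a5 and Slc7a8 were lower in BAT than in both white depots, by -1.59 and -1.90 against iWAT and -2.19 and -1.76 against eWAT. Their partner Slc3a2 was called lower against iWAT (-0.88), and its difference from eWAT of -0.58 fell just short of 1.5-fold. Slc43a2, a transporter of neutral amino acids, was higher in eWAT than in iWAT (1.31).

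Transcripts of other kinds differed between the depots too, and not all of them followed the order of the members. The 8 mitochondrial genes listed as a reference were all called higher in BAT than in iWAT (median log2 fold change 2.85) and than in eWAT (3.67), and 6 of 8 were lower in eWAT than in iWAT (-0.89). The 6 adipocyte markers were all lower in eWAT than in iWAT, with a median of -1.57, beside -1.29 for the members, and the 10 macrophage markers were all higher, with a median of 1.80. In bulk tissue, fewer cells of a type and less RNA per cell cannot be told apart. The part of cell composition in the depot differences of the members was not tested.

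In C6KO, all 30 member estimates were above 0, 10 in each depot, but edgeR called none within a depot at both the adjusted p and the 1.5-fold minimum. Bckdha in eWAT met the first alone, and DESeq2 called Bckdhb and Aldh6a1 in eWAT. All C6KO libraries lay above all WT libraries for 7 of the 10 members in iWAT, for 6 in eWAT and for 5 in BAT. Over all genes tested, 10.9%, 12% and 8.07% were placed so, and 53.8%, 49.1% and 46.1% had an estimate above 0. With TMM within a depot, Bckdha, Ivd, Mccc1 and Acadsb were without overlap in all 3 depots, and Mccc2 and Hibch in none. The counts depended on scaling. In BAT there were 3 members under TMM over 18 libraries (Bckdha, Ivd and Mccc1) and 3 under total counts alone (Bckdha, Ivd and Acadsb). In iWAT there were 6 under total counts alone, without Mccc1, and in eWAT the count stayed at 6. The shares of all genes without overlap in all 3 depots, or under these other scalings, were not computed. The members varied together, so 10 estimates of 1 sign are not 10 separate observations. The list was also chosen with earlier results of these data known, so the shares of all genes are given as a description only. The members had a median log2 fold change of 0.26 in BAT, 0.41 in iWAT and 0.46 in eWAT, and all genes tested had -0.03, 0.03 and -0.01.

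**Figure D3:**
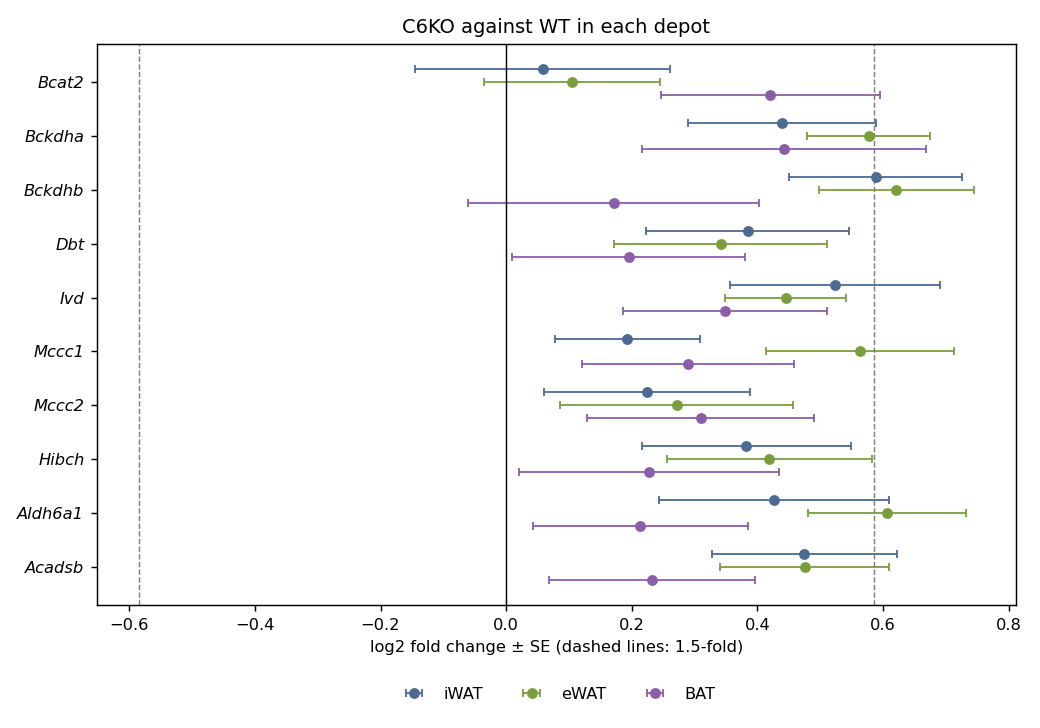
Log2 fold change with its SE (horizontal axis) of each member between C6KO and WT libraries, fitted within each depot, with dashed lines at 1.5-fold. All 30 estimates lie to the right of 0, most of them short of 1.5-fold, and those of BAT are mostly the smallest.

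In iWAT, no member was called by edgeR or by DESeq2, and 0.00688% of 14533 genes were called higher by edgeR. At an unadjusted p under 0.05, 7 of the 10 members were higher, against 7.25% of all genes. Bckdhb was at 81.8, 67.8 and 67.5 CPM in WT and at 103, 125 and 97.8 in C6KO. The groups did not overlap, and the log2 fold change was 0.59 ± 0.14 (SE) with an adjusted p of 0.154. Ivd was at 172, 197 and 183 CPM in WT and at 256, 326 and 212 in C6KO. Its lowest C6KO library was the one with the most macrophage transcripts, and its log2 fold change was 0.52 ± 0.17 (SE) (adjusted p = 0.199). Bckdha was at 203, 187 and 184 CPM in WT and at 271, 296 and 211 in C6KO, a log2 fold change of 0.44 ± 0.15 (SE) (adjusted p = 0.214).

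Bcat2 was the flattest member in iWAT. It was at 86.2, 99.0 and 87.1 CPM in WT and at 65.4, 120.5 and 97.5 in C6KO, so that the C6KO libraries lay on both sides of WT and the log2 fold change was 0.06 ± 0.20 (SE). The other 6 members had log2 fold changes from 0.19 for Mccc1 to 0.48 for Acadsb, with adjusted p values from 0.195 to 0.524. C6KO library 2 was the highest of the 6 iWAT libraries for all 10 members, and without it the median log2 fold change of the members was 0.20. Without C6KO library 3, Bckdhb and Ivd were called, with log2 fold changes of 0.64 and 0.64 (edgeR adjusted p = 0.0267 and 0.0311). In that setting 327 of 14798 genes were called higher and 951 lower, against 1 and 3 with all libraries. The same 7 members were without overlap there, which leaving out a library could not have undone. The share of all genes without overlap there was not computed.

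In eWAT, again no member was called by edgeR at both limits, where 0.537% of 14889 genes were called higher, whereas DESeq2 called Bckdhb and Aldh6a1 among 429 of 19599 genes called higher. At an unadjusted p under 0.05, 7 members were higher, against 9.81% of all genes. Bckdha was at 87.3, 88.2 and 85.3 CPM in WT and at 125, 141 and 123 in C6KO. Both groups were tight and well apart, with an adjusted p of 0.0432, and its fold change of 1.49 (log2 0.58 ± 0.10 (SE)) was just under 1.5. Bckdhb was at 41.1, 35.2 and 32.8 CPM in WT and at 61.0, 56.3 and 50.7 in C6KO, and Aldh6a1 was at 207, 193 and 189 and at 349, 288 and 260.1. These were the reverse case, past 1.5-fold at 1.54 and 1.52 times WT with adjusted p values of 0.0533 and 0.0567. Mccc1 was at 58.6, 57.3 and 49.7 CPM in WT and at 93.4, 87.6 and 63.7 in C6KO, without overlap (log2 fold change 0.56 ± 0.15 (SE), adjusted p = 0.0907). Its partner Mccc2 was at 38.2, 40.1 and 34.9 and at 48.3, 56.0 and 32.2, where C6KO library 3 was the lowest of all 6. Bcat2 was again nearly level, at 60.4, 71.6 and 64.4 CPM in WT and 61.9, 85.4 and 63.9 in C6KO (log2 fold change 0.11 ± 0.14 (SE)). C6KO library 3, the one with the most lymphocyte transcripts, was the lowest C6KO library for 9 of the 10 members. Among the C6KO libraries of eWAT it also had the lowest sum of adipocyte markers (12257 CPM against 15580 and 15305). Its sum of mitochondrial genes was the lowest too (2320 against 2865 and 3225), and that of mesothelial markers the highest (184 against 45.9 and 90.3). Without C6KO library 3 the median log2 fold change of the members was 0.58, and 9 members were without overlap. Without WT library 3 these were 0.43 and 6, and no member was called in either case. Leaving out a library can keep or raise a count of members without overlap but cannot lower it. The share of all genes without overlap in these settings was not computed. The part of lymphocyte and of these other transcripts was not tested.

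Of 4 ratios of Bckdha to other genes of the pathway in eWAT, those to Bckdk and Bcat2 did not overlap between the genotypes and those to its partners Bckdhb and Dbt did. The TPM ratio of Bckdha to Bckdk, the kinase that inactivates it, was 2.24 to 2.48 in the 3 WT libraries and 3.64 to 3.72 in the 3 C6KO libraries. Bckdk itself was at 56.8, 58.0 and 61.3 CPM in WT and 55.4, 62.4 and 53.4 in C6KO, so the ranges of the kinase overlapped while those of its substrate did not. The ratio of Bckdha to Bcat2 was 1.25 to 1.46 in WT and 1.67 to 2.05 in C6KO. Within the complex, the ratio of Bckdha to Bckdhb was 1.77 to 2.17 in WT and 1.72 to 2.09 in C6KO, and that to Dbt 3.66 to 4.21 and 3.40 to 5.35. In iWAT the ratio of Bckdha to Bckdk was 4.45 to 4.81 in WT and 4.03 to 6.49 in C6KO, and in BAT 4.22 to 6.47 and 6.27 to 7.67, with overlap in both. The ratios of Bckdha to Bcat2, Bckdhb and Dbt overlapped in these depots too, except that to Dbt in BAT. It was 5.18 to 6.23 in WT and 6.52 to 7.18 in C6KO. These ratios were picked out after their values were seen and were not tested.

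In BAT, no member was called by edgeR or DESeq2, with 0.169% of 13595 genes called higher and 1.07% lower by edgeR. Bcat2 was the 1 member with an unadjusted p under 0.05, against 4.56% of all genes in that direction. It was at 98.0, 79.7 and 98.6 CPM in WT and at 102, 124 and 144 in C6KO, without overlap on this scale, and its log2 fold change was 0.42 ± 0.17 (SE) (adjusted p = 0.342). Bckdha had the largest estimate, 0.44 ± 0.23 (SE), from 914, 507 and 739 CPM in WT and 973, 1001 and 961 in C6KO. WT library 2, the one with muscle and lymphocyte transcripts, was the lowest of the 6 BAT libraries for 9 of the 10 members. Without that library the log2 fold change of Bckdha was 0.25, that of Bckdhb -0.01, that of Dbt 0.05 and that of Hibch 0.05, from 0.17, 0.20 and 0.23 for the last 3 with it, and the median of the members was 0.17. Ivd, the exception, was at 237, 263 and 248 CPM in WT and 282, 325 and 347 in C6KO, and its log2 fold change was 0.35 ± 0.16 (SE) with that library and 0.39 without it. Bcat2 had a log2 fold change of 0.33 without that library, and its unadjusted edgeR p was then 0.106. That of Ivd was then 0.0437, and the adjusted p values of the 2 genes were 0.484 and 0.352. The same 5 members, Bcat2, Bckdha, Ivd, Mccc1 and Acadsb, were without overlap with and without it. Leaving out a library could not have undone this, and the share of all genes in that setting was not computed.

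Between depots, the C6KO effect on the members was not shown to differ. As interaction terms in the fit of 18 libraries, the member estimates ran from -0.08 to 0.37 on the log2 scale for eWAT against iWAT, from -0.43 to 0.36 for BAT against iWAT, and from -0.46 to 0.31 for BAT against eWAT. None of the 10 was called by edgeR or DESeq2 in any of the 3, and none had an unadjusted p under 0.05. Of all 15866 genes, 0%, 0.183% and 0.536% were called in these 3 comparisons.

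The other catabolic enzymes had positive estimates too, in 11, 13 and 11 of 13 cases in iWAT, eWAT and BAT. Of all genes, 53.8%, 49.1% and 46.1% had an estimate above 0. The medians of these enzymes were 0.25, 0.28 and 0.13 on the log2 scale, with no call upwards in any depot. Pccb, a subunit of propionyl-CoA carboxylase, was at 81.1, 81.1 and 73.2 CPM in WT eWAT and at 117, 112 and 104 in C6KO (log2 fold change 0.50 ± 0.10 (SE), edgeR adjusted p = 0.0533). Hsd17b10, a dehydrogenase of the isoleucine branch, was at 127, 91.9 and 112 CPM in WT BAT and 166, 158 and 249 in C6KO (log2 fold change 0.79 ± 0.21 (SE), edgeR adjusted p = 0.130). The 3 regulators and 6 carriers had no call in any depot. Klf15 was variable, at 33.3, 120.1 and 41.2 CPM in C6KO iWAT, where library 2, the highest for all 10 members, was also the highest for Klf15.

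Bcat1, the cytosolic counterpart of Bcat2, was the 1 gene of the pathway lists that edgeR called within a depot, and it fell in BAT. In BAT it was at 8.66, 11.0 and 11.5 CPM in WT and at 3.78, 1.74 and 2.14 in C6KO, with no overlap. The log2 fold change was -2.04 ± 0.34 (SE) with an edgeR adjusted p of 0.0282, which ran from 0.0348 to 0.125 when 1 library was left out, and the call was lost without WT library 1 or 3 or C6KO library 2 or 3. In iWAT, Bcat1 was at 60.0, 57.1 and 61.7 CPM in WT and at 31.8, 25.3 and 62.2 in C6KO. Of the C6KO libraries, 1 and 2 were below WT and library 3, with the macrophage transcripts nearest to WT, was level with it, and without library 3 Bcat1 was called lower at a log2 fold change of -1.08 (edgeR adjusted p = 0.00229). In eWAT, Bcat1 was at 19.5, 15.0 and 17.6 CPM in WT and at 18.1, 28.7 and 27.5 in C6KO, with an estimate in the other direction (0.51 ± 0.19 (SE), adjusted p = 0.195). Per length, the TPM ratio of Bcat2 to Bcat1 was 31.8 to 49.7 in WT BAT and 118 to 314 in C6KO BAT. The Bcat1 values of BAT rest on few reads, with counts of 67, 125 and 115 in WT and 32, 21 and 22 in C6KO.

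**Figure D4:**
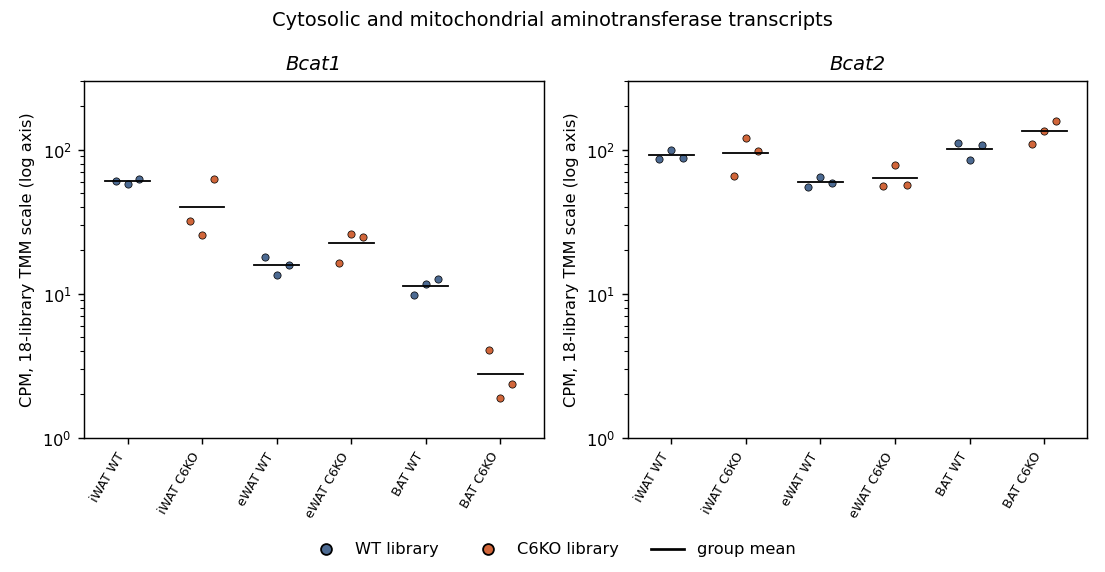
CPM on the 18-library scale (log axes with a common range) of Bcat1 and Bcat2 in each library, with points for libraries and bars for group means. The 3 C6KO libraries of BAT lie below the 3 WT libraries for Bcat1 and lie level with or above them for Bcat2.

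Markers of cell types moved with the C6KO libraries. All 10 macrophage markers were lower in C6KO in each depot with no overlap between the genotypes, with sums of 2268 to 2671 CPM in WT and 571 to 1715 in C6KO iWAT, 8602 to 11338 and 5645 to 6983 in eWAT, and 861 to 1156 and 304 to 496 in BAT. The share of all genes with every C6KO library below every WT library was not computed. The test called 5 of the 10 lower in BAT, against 1.07% of all genes there, and none in the white depots. The 6 adipocyte markers had estimates above 0 in both white depots. Their median log2 fold change was 0.42 in iWAT and 0.67 in eWAT, beside 0.41 and 0.46 for the BCAA members. In eWAT 2 of the 6 were called higher, against 0.537% of all genes. In BAT the adipocyte markers had a median of 0.09, beside 0.26 for the members. The mitochondrial genes had medians of 0.16 in BAT, 0.17 in iWAT and 0.29 in eWAT, below those of the members in each. The 4 endothelial markers had medians of 0.20, 0.10 and 0.49 in that order. Their sums did not overlap in eWAT (481 to 540.1 CPM in WT, 659 to 832 in C6KO) or BAT (711 to 877 and 981 to 985), and none was called. Hepatocyte transcripts had sums of at most 56.8 CPM in WT and 46.8 to 275 in C6KO iWAT and of 10.8 to 16.1 and 30.6 to 89.5 in eWAT, without overlap in eWAT. The part of these markers in the member estimates was not tested.

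**Figure D5:**
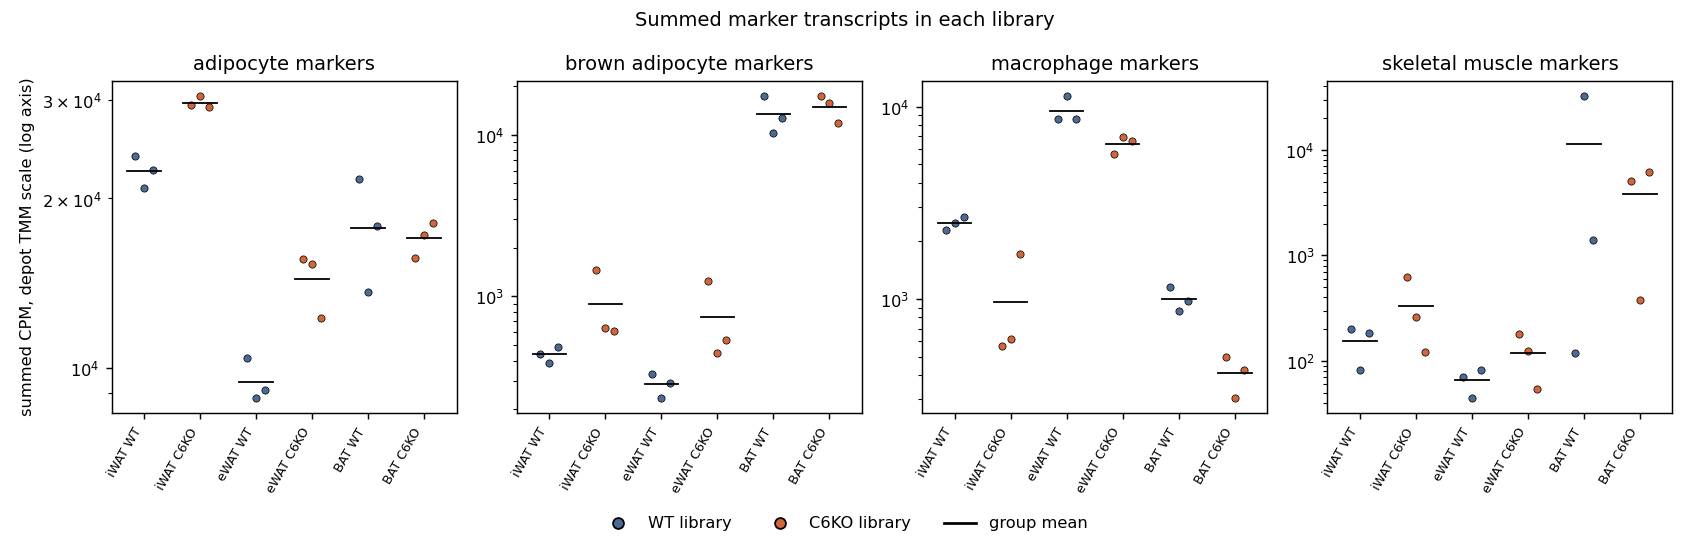
Summed CPM, scaled within each depot (log axes), of 6 adipocyte, 6 brown adipocyte, 10 macrophage and 8 skeletal muscle markers in each library, with points for libraries and bars for group means. The C6KO libraries lie below the WT libraries for macrophage markers in each depot and above them for adipocyte markers in iWAT and eWAT, and 1 WT library of BAT stands out for skeletal muscle markers. In iWAT and eWAT the brown adipocyte sum is mostly Pdk4.

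Within depots, the members varied together. Over the 18 libraries, with the mean of each depot subtracted, the Pearson correlation of a member's log2 CPM with the mean of the other 9 was 0.525 for Bcat2 and 0.806 to 0.943 for the rest, from Ivd to Hibch. The genes outside the list whose pattern was most like the mean of the members, of 13122 genes compared, were Gstk1 (r = 0.972), a glutathione transferase of mitochondria and peroxisomes, Dpyd (0.964), the enzyme that starts pyrimidine breakdown, Pccb (0.948), Dhrs4 (0.929), a carbonyl reductase, and Adhfe1 (0.928), a mitochondrial hydroxyacid transhydrogenase. Of these 5, only Pccb is on the lists of pathway genes. These correlations are a description over 18 libraries that share their scaling and, in part, their cell composition and genotype. The libraries of C6KO iWAT differed among themselves by a median coefficient of variation of 21.4% over the members, against 5.87% in WT iWAT, and those of BAT by 15.8% in WT and 7.47% in C6KO.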

How the data were processed

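The authors prepared poly(A) RNA libraries, sequenced them on an Illumina NextSeq, mapped the reads to mm10 with STAR and counted reads on exons with HOMER, keeping 1 transcript per gene. They deposited 1 table of raw counts per depot for 25124 genes, whole numbers without normalization. For 2619 genes, none of them a member, the transcript differs between tables. Tool versions and strandedness are not given in the sources used here.

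C6KO and WT libraries were compared within each depot with edgeR 4.0.16 in R 4.3.3 (filterByExpr, TMM, robust quasi-likelihood). Depots of WT mice and interactions of genotype and depot came from 1 fit of all 18 libraries. Adjusted p values are Benjamini-Hochberg values over all genes tested, at 0.05 with a minimum fold change of 1.5. TPM were computed from the counts and the deposited transcript lengths. The tests were also run on counts simulated with the same spread for all genes and no library set apart. That run does not show how the tests behave on these libraries. Alternatives were DESeq2 1.42.0, DESeq2 size factors, total counts, other count filters, no fold minimum, 1 fit of all libraries, genes with 1 transcript in all tables, the replicate number as a block, and each library left out in turn. Scalings for the counts of members without overlap, and leaving out single libraries there, were added after the data were seen. Genes were named if they were members, Casp6, other pathway genes past the threshold with a few more per list as examples, or the 5 genes most alike in depot-centred log2(CPM + 1). The members and the gene lists were chosen with earlier results of these data known. Of the listed symbols, 2 were not in the tables. No pair of replicates agreed within sampling noise. P values measure the spread between 3 libraries a group, called biological replicates in the labels.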

Additional observations from a re-analysis of the deposited data

Results flagged for a closer look

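The response of Bcat1, the cytosolic aminotransferase, to caspase-6 deletion differed between BAT and eWAT by the interaction term of the fit of 18 libraries, at a log2 difference of -2.58 ± 0.45 (SE, edgeR quasi-likelihood adjusted p = 0.0142). The 3 C6KO libraries of BAT were at 3.78, 1.74 and 2.14 CPM against 8.66, 11.0 and 11.5 in WT. In eWAT they were at 18.1, 28.7 and 27.5 CPM against 19.5, 15.0 and 17.6. Leaving out 1 library gave differences from -2.94 to -2.35, and the call was lost without WT library 2 or 3 of eWAT or C6KO library 2 of BAT. Bcat1 was low in BAT. Macrophage markers were lower in C6KO in both depots, and their part in the difference was not tested. Of the 10 members, none was called in this comparison by edgeR or DESeq2, and none had an unadjusted p under 0.05.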

How the results depend on the processing

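With 3 libraries a group, the fits within depots called few genes, and the calls moved with the method. In iWAT, edgeR called 1 gene higher and 3 lower and DESeq2 169 and 505, in eWAT 80 and 31 against 429 and 189, and in BAT 23 and 145 against 156 and 389. Leaving out 1 library gave 0 to 327 higher and 3 to 951 lower in iWAT (the highest of both without C6KO library 3), 0 to 254 and 2 to 93 in eWAT (the lowest without WT library 1, the highest without C6KO library 2), and 2 to 33 and 24 to 145 in BAT (4 and 24 without C6KO library 3). Under total counts alone eWAT had 39 and 28. For BAT, eWAT and iWAT in turn, the replicate block gave 12 and 101, 298 and 116, and 8 and 54, no filter on low counts gave 47 and 190, 224 and 97, and 6 and 26, and 1 fit of all 18 libraries gave 95 and 430, 1 and 3, and 58 and 308. With at least 10 counts in every library BAT had 36 higher and iWAT 1 lower. BAT libraries were the shallowest. No member was called in eWAT C6KO against WT by the main test, 2 were called by DESeq2, 2 without a filter on low counts and 2 with the replicate block (Bckdhb and Aldh6a1 each time, where 429 of 19599, 224 of 19608 and 298 of 14889 genes were called higher), and 1, Bckdha, without a fold change minimum. Leaving out 1 library gave 0 to 2 called members in iWAT. In BAT, the members with every C6KO library above every WT library were 5 within the depot, 3 with TMM over 18 libraries and 3 with total counts only. In iWAT they were 7, 7 and 6 in the same order, and in eWAT 6 each time. Total counts alone reversed Bcat2 to -0.00010 in C6KO iWAT and to -0.0037 in BAT against iWAT, and put the median of all genes at 0.15 instead of 0.01 for eWAT against iWAT, at -0.13 instead of 0.01 for BAT against iWAT and at -0.26 instead of 0.03 for BAT against eWAT. Leaving out 1 library reversed estimates of 2 members: Bcat2 ran from -0.16 to 0.27 in iWAT and from -0.048 to 0.20 in eWAT, and Bckdhb from -0.014 to 0.45 in BAT. The causes were not tested. The replicate numbers were not taken to pair the samples, since not every pair correlated above 0.1. Deviations of same-numbered WT and C6KO libraries correlated at -0.554 to -0.254 in BAT, 0.021 to 0.058 in iWAT and -0.066 to 0.179 in eWAT. Same-numbered libraries of iWAT and eWAT correlated at 0.079 to 0.307 in WT (mean 0.178, against -0.089 for other numbers). In C6KO they did so at -0.096 to 0.336 (0.098 against -0.049). Those of iWAT and BAT correlated at 0.031 to 0.097 in WT (0.066 against -0.033) and 0.036 to 0.133 in C6KO (0.092 against -0.047). Those of eWAT and BAT did so at -0.075 to 0.095 and -0.083 to 0.045. The main fit of 18 libraries treats them as independent, and whether depots shared mice was not tested. With the replicate block no member's depot call changed, and the members called were 0 in iWAT, 2 in eWAT and 0 in BAT, while Bcat1 in BAT had a log2 fold change of -2.09 and was not called.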
